A study of Mus musculus with 6 samples.

Results

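The 10 genes described here make, sense or carry the signals of hepcidin and iron handling in the liver: Hamp, Hamp2, Hfe, Tfr2, Tfrc, Bmp6, Id1, Tmprss6, Slc40a1 and Trf. They were chosen by gene symbol from a table of 14499 genes, and all 10 were found, each in 1 row. A mean FPKM (fragments mapped to a gene, scaled by its length and by the library's mapped fragments) over the libraries would have decided between rows of the same symbol, and was not needed. Total liver RNA was sequenced in 6 libraries, 3 per genotype. The WT_DDC libraries came from wild-type mice and the Arid1a_KO_DDC libraries from mice with a hepatocyte-specific knockout of Arid1a, which encodes a subunit of the BAF chromatin remodelling complex. The strain background was C57Bl/6; 129Sv for both genotypes, the age postnatal 10 weeks, and both were given DDC for 2 weeks. DDC is a compound that blocks heme synthesis, builds up porphyrins in the liver and injures the bile ducts. No library without DDC was compared, so the values describe injured livers only, and the sources used here do not name the Cre driver. Nothing in the labels ties each library to its own mouse, and the p-values therefore rest on the spread between libraries, which may in part be technical. Y-linked transcripts, given below, differ within each genotype, so its libraries do not all come from the same mouse.

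Hepcidin is a small peptide hormone that hepatocytes secrete. It binds the iron exporter ferroportin, encoded by Slc40a1, and has it degraded, so that less iron enters the blood from the gut and from macrophages. Its gene is switched on by BMP ligands from sinusoidal endothelial cells, through SMAD factors and with the help of HFE, hemojuvelin and transferrin receptor 2, and by interleukin 6 through STAT3, and it is restrained by the protease TMPRSS6. Mice carry a pair of hepcidin genes, Hamp and Hamp2. Hamp encodes the hormone that controls iron, while Hamp2 arose by duplication and has no established part in iron control.

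Between 11280 and 11712 genes per library had at least 1 FPKM, and the absolute depth of the libraries is unknown. The Y-linked gene Ddx3y was at 0.0527 and 0.0227 FPKM in replicate 1 of wild type and knockout and between 9.27 and 11.3 FPKM in the other 4 libraries. The library identifiers split in the same way (L0566 and L0567 against L0602 to L0605), so sex and whatever the identifiers stand for cannot be told apart, and both are balanced over genotype. Hepatocyte markers were all found, with a summed level of 42541 to 44761 FPKM in wild type and 45268 to 55591 FPKM in knockout. These sums did not overlap, and most of each was Alb (log2 difference 0.10). Of the 9 differences 1 was negative, 0 passed by limma and 2 had an unadjusted p under 0.05. The groups of 2 markers, Asgr1 and Ttr, were higher in knockout without overlap, as were 7.09% of all genes tested. Arid1a was at 7.85, 5.48 and 5.98 FPKM in wild type and at 6.61, 5.01 and 3.81 FPKM in knockout, with overlapping groups. A level over the whole gene in all liver cells does not check a deletion in hepatocytes.

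Both hepcidin genes lie on the minus strand of chromosome 7 (GRCm38), and their start regions are printed here because Hamp2, alone of the 10 genes, had groups that did not overlap, while its paralog Hamp did not separate them. Hamp (ENSMUSG00000050440) spans 30942368 to 30944032 and Hamp2 (ENSMUSG00000056978) spans 30922372 to 30924681. The sequences are the 250 bases before the RefSeq start of each gene (GRCm38.p6), for Hamp chr7:30944030-30944279 and for Hamp2 chr7:30924182-30924431, read on the minus strand. GENCODE also lists a Hamp2 transcript that starts further upstream, with its first exon at 30924536 to 30924681. The bases before that start were not examined. Both printed sequences come from the reference genome, and the alleles of the mice sequenced here were not read. The first block of capitals marks the element GGCGCC, to which BMP-activated SMAD factors bind in hepcidin genes, or the letters aligned with it. The other block marks TTCTTGGAA, a match to the STAT element TTCNNNGAA.
Hamp: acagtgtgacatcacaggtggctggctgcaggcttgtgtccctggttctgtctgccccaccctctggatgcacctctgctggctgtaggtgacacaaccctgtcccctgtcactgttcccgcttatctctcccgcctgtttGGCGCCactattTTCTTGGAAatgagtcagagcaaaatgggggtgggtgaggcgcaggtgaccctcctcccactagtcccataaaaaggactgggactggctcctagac
Hamp2: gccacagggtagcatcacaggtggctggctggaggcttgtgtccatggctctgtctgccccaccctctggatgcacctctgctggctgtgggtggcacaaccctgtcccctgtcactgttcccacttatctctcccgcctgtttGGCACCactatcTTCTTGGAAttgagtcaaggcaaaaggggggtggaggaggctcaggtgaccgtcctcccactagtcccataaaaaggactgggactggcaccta

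Of 247 aligned bases of this region 227 were identical, or 91.9%, with 20 substitutions. One of them fell in the BMP element: G145A, counted from 1 at the 5′ end of the Hamp sequence, leaves GGCACC in Hamp2. The STAT element carried 0 of the substitutions. In the same 250 bases before the start of 32851 RefSeq promoters, 9.59% held GGCGCC, 7.02% held TTCNNNGAA and 6.02% held the E-box CACGTG. Each of these motifs reads the same on both strands, and the matches in the hepcidin genes do not overlap. Promoters were matched for 6 of the 10 genes, not for Id1, Tmprss6, Slc40a1 and Trf. These 6 genes had 9 promoters in the table, as Tfr2 had 3 and Tfrc 2. GGCGCC was found in that of Hamp and in 1 of the 2 of Tfrc, TTCNNNGAA in those of Hamp and Hamp2, and CACGTG in that of Bmp6. A match of letters is a description and shows no binding. The substitutions set Hamp against Hamp2 in the reference genome, not wild type against knockout. Their part in the levels of Hamp2 was not tested.

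Hamp2 was the gene of the group with the widest gap between the genotypes. It was at 387, 200 and 415 FPKM in wild-type replicates 1, 2 and 3 and at 11.6, 33.3 and 26.1 FPKM in the knockout replicates. The groups did not overlap, and the lowest wild-type library was 6.02 times the highest knockout library. The means were 334 ± 117 and 23.6 ± 11.0 FPKM (SD, n = 3 libraries each), a 14.1-fold lower level in knockout. The log2 difference, on log2(FPKM + 1), was -3.81 with a limma standard error of 0.43. Hamp2 was already known to be among the genes that differ when the 10 genes were listed, so these values are a description, no p is printed for it and its passing of the threshold is no independent result.

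Hamp, the gene of the iron-regulating hormone, did not separate the genotypes. It was at 13601, 3390 and 17554 FPKM in wild type and at 2684, 10382 and 16174 FPKM in knockout. Each genotype had 1 low library, replicate 2 in wild type and replicate 1 in knockout, and the groups overlapped over nearly their whole range. On the log2 scale knockout minus wild type was -0.28 (SE 0.84, adjusted p = 0.928 by limma). The highest of the 6 libraries was 6.54 times the lowest. The sign of this difference depended on the libraries: it was -2.34 between the replicate 1 libraries and 0.75 in replicates 2 and 3. It was 0.18 without wild-type replicate 3 and 0.48 without knockout replicate 1, and -1.01 without wild-type replicate 2.

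Relative to Hamp in the same library, Hamp2 was at 2.85%, 5.91% and 2.36% in wild type and at 0.433%, 0.320% and 0.161% in knockout. The lowest of the wild-type shares was 5.46 times the highest knockout share. In the same-numbered libraries the wild-type level of Hamp2 was 33.3, 6.02 and 15.9 times that of knockout, while the ratio for Hamp was 5.07, 0.327 and 1.09. The numbers were not taken to pair the libraries, so these ratios are no matched comparisons. Summed over the pair, hepcidin transcripts were at 13988, 3590 and 17969 FPKM in wild type and at 2696, 10415 and 16200 FPKM in knockout, with a log2 difference of -0.33. Hamp made up at least 94.4% of the sum in each library.

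**Figure D1:**
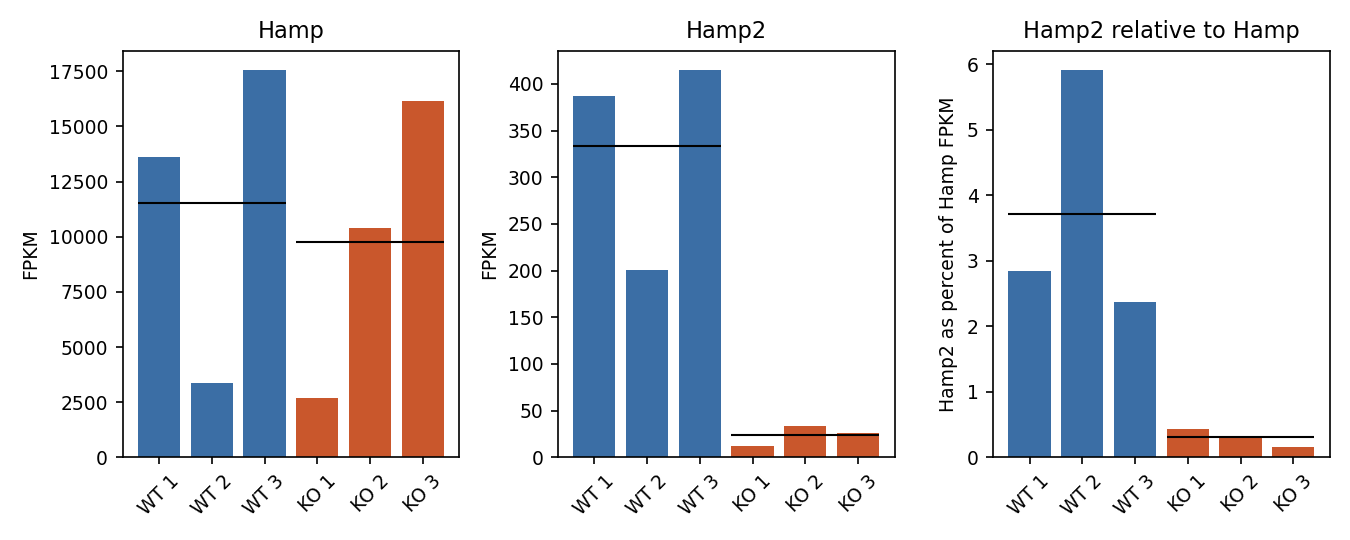
FPKM of Hamp (left), FPKM of Hamp2 (middle) and Hamp2 as a percent of Hamp (right) in each library, with wild type (WT) in blue, Arid1a knockout (KO) in orange, replicate numbers below and a line at the mean of each group. Hamp overlaps between the genotypes, whereas Hamp2 is at 200 FPKM or more in wild type and at 33.3 FPKM or less in knockout.

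The paralogs are alike enough to share reads. The GENCODE transcript of Hamp (410 bases) and the Hamp2 transcript of 420 bases were identical at 388 of 410 aligned bases, or 94.6%. Of the windows of 50 bases in that Hamp2 transcript, 16.2% also occur in Hamp without a mismatch. At 75 bases 3.76% do, and at 100 bases 0 of 321 windows do. Windows that fit the other gene with a mismatch were not counted, so reads that fit both genes may be more common than these shares. The sources used here do not give the read length or how shared reads were divided. The knockout levels of Hamp2 were at most 0.433% of those of Hamp, so the 14.1-fold ratio carries the uncertainty of shared reads. The long noncoding gene Gm44662 runs antisense across both hepcidin genes, and its second exon (chromosome 7, 30922524 to 30922630) overlaps the last exon of Hamp2. It is listed at 0 FPKM in all 6 libraries. The sources used here do not say whether the counting used strand.

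Genes beside the hepcidin pair were listed by name to see whether a wider stretch of the chromosome moved. Any other genes of the stretch were not looked up, so the list is not a full survey. Usf2, a transcription factor gene that lies next to Hamp, was at 29.3, 27.4 and 29.2 FPKM in wild type and at 31.4, 29.5 and 32.2 FPKM in knockout (log2 difference 0.11, SE 0.12, limma adjusted p = 0.777). Lsr, a lipoprotein receptor and tight junction gene on its far side, was at 92.7, 145 and 128 FPKM in wild type and at 87.0, 68.3 and 69.4 FPKM in knockout. The Lsr groups did not overlap, and the difference of -0.68 did not pass (SE 0.20, adjusted p = 0.285). Hpn, encoding the protease hepsin, and Fxyd1, an ion pump regulator, had differences of -0.01 and 0.09, both of which changed sign in some alternatives. Cd22, a B cell receptor gene on the other side of Hamp2, was at -0.45. Lgi4 fell below the filter and was not tested. It was at 0.117, 0.618 and 0.519 FPKM in wild type and at 0.0675, 0.200 and 0.108 FPKM in knockout, with overlapping groups. Mag, Ffar1, Ffar2 and the pseudogene Usf2-ps1, which also lie in this stretch, were not listed in the deposited values. Of 5 tested neighbours 0 passed the limma threshold, with 1 (Lsr) at an unadjusted p under 0.05, and none had a difference near that of Hamp2. The groups did not overlap for 1 as lower in knockout (Lsr) and for 1 as higher (Usf2). Over all genes tested these shares were 9.56% and 7.09%.

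By a rule on the profile alone, the genes most like Hamp2 over the 6 libraries were Igkv6-32, Slc13a3 and Tgtp1. The measure was the root mean square difference of log2(FPKM + 1) values centred on each gene's mean, which was 0.47, 0.53 and 0.59 for these genes against a median of 2.00 over all genes tested. Slc13a3, a dicarboxylate transporter, was at 24.4, 12.3 and 22.1 FPKM in wild type and at 0.690, 2.01 and 2.99 FPKM in knockout. Its wild-type replicate 2 was the lowest of its group, as for Hamp2. The genes most like Hamp were Rpl29, a ribosomal protein gene, Thrsp, a lipogenic gene, and Gm43314, at 0.43, 0.48 and 0.51 against a median of 1.11. Rpl29 was at 370, 126 and 425 FPKM in wild type and at 145, 528 and 706 FPKM in knockout, low in the same pair of libraries as Hamp. All of these genes were picked by their profile, so the small distances and the shared low libraries follow from the choice.

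Over the 10 genes, 1 passed the limma threshold in the direction of lower in knockout, which was Hamp2, and 0 passed as higher. Over all 11839 genes tested, 42 were lower and 16 higher in knockout (0.355% and 0.135%, or 0.49% in either direction). Hamp2 was part of what was known when the list was made, so nothing is read from this count. The groups of 1 gene of the 10 did not overlap, against 9.56% of all genes for lower and 7.09% for higher, or 16.6% in either direction. All 10 passed the filter on low values, 8 had a negative and 2 a positive difference, and their median was -0.21 against 0.0034 over all genes tested. The other 9 genes had adjusted p-values from 0.483 to 0.970 by limma, and 0 of them had an unadjusted p under 0.05.

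**Figure D2:**
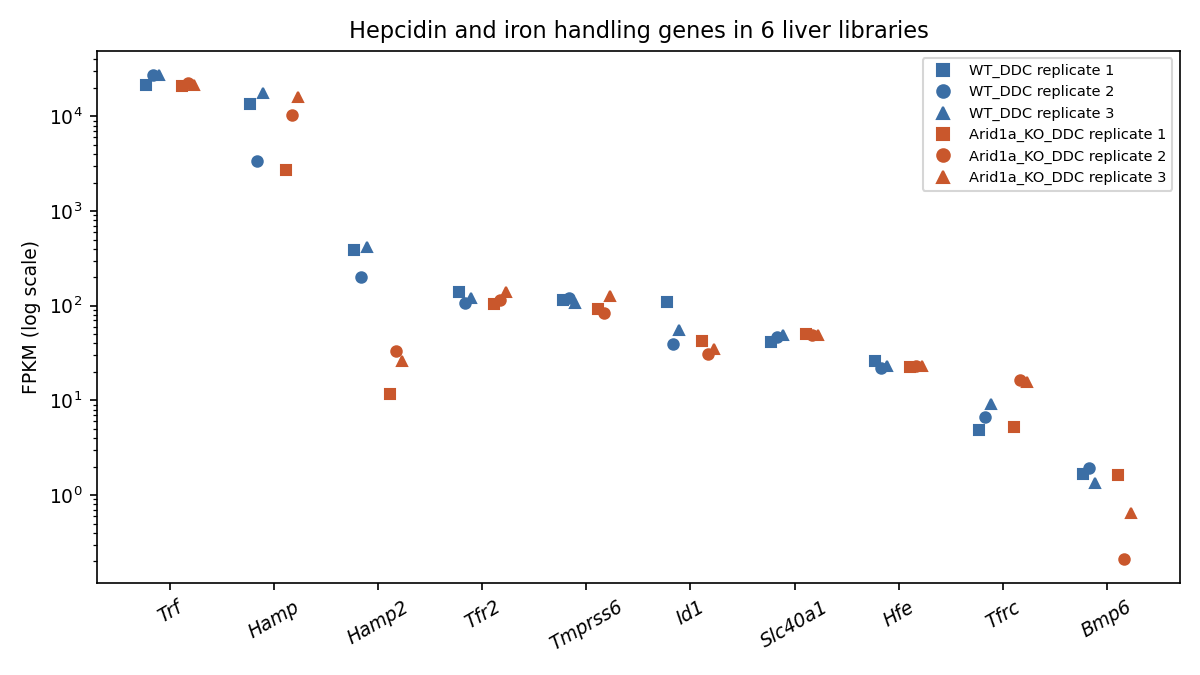
FPKM on a log axis for the 10 genes, ordered by their wild-type mean, with wild type in blue, Arid1a knockout in orange and the marker shape giving the replicate number. The groups of Hamp2 are apart, and those of the other 9 genes overlap.

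The order of levels, which FPKM allows because it is scaled by gene length, ran from carriers and hormone down to the BMP ligand. In wild type it was Trf, Hamp, Hamp2, Tfr2, Tmprss6, Id1, Slc40a1, Hfe, Tfrc and Bmp6. Tfr2 and Tmprss6, Tmprss6 and Id1, and Id1 and Slc40a1 overlapped between neighbours. In knockout Hamp2 moved from the third place to the seventh, where its libraries overlapped those of Id1 and of Hfe. Trf ranked 5 and Hamp 10 by mean FPKM among all genes of the table, and Hamp2 ranked 552. Bmp6 ranked 11401.

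The upstream signal genes gave no difference past the threshold. Bmp6 (chromosome 13, 38345107 to 38500302), the BMP ligand that rises with liver iron, was at 1.66, 1.93 and 1.35 FPKM in wild type and at 1.64, 0.212 and 0.649 FPKM in knockout. Knockout replicates 2 and 3 were below all wild-type libraries and knockout replicate 1 was among them. The difference was -0.60 (SE 0.29, adjusted p = 0.506), and at such low FPKM its size depended on the pseudocount, with -1.22 for 0.1 and -0.19 for 5. It was -0.01 between the replicate 1 libraries, -0.89 in replicates 2 and 3 and -0.34 without knockout replicate 2. Bmp6 in liver comes mainly from sinusoidal endothelial cells. The 9 markers of these cells summed to 97.4, 70.0 and 118 FPKM in wild type and to 105.7, 55.3 and 41.5 FPKM in knockout, with 9 of 9 differences negative, 0 past the threshold by limma, 1 at an unadjusted p under 0.05 and none of the markers at 0. In knockout, replicate 1 was high and replicates 2 and 3 low for Bmp6 and for the marker sum. In wild type the order was the opposite, with the highest Bmp6 and the lowest sum in replicate 2 and the lowest Bmp6 and the highest sum in replicate 3. The part of cell makeup in the result was not tested. In total RNA, fewer cells of a type and less RNA per cell cannot be told apart.

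**Figure D3:**
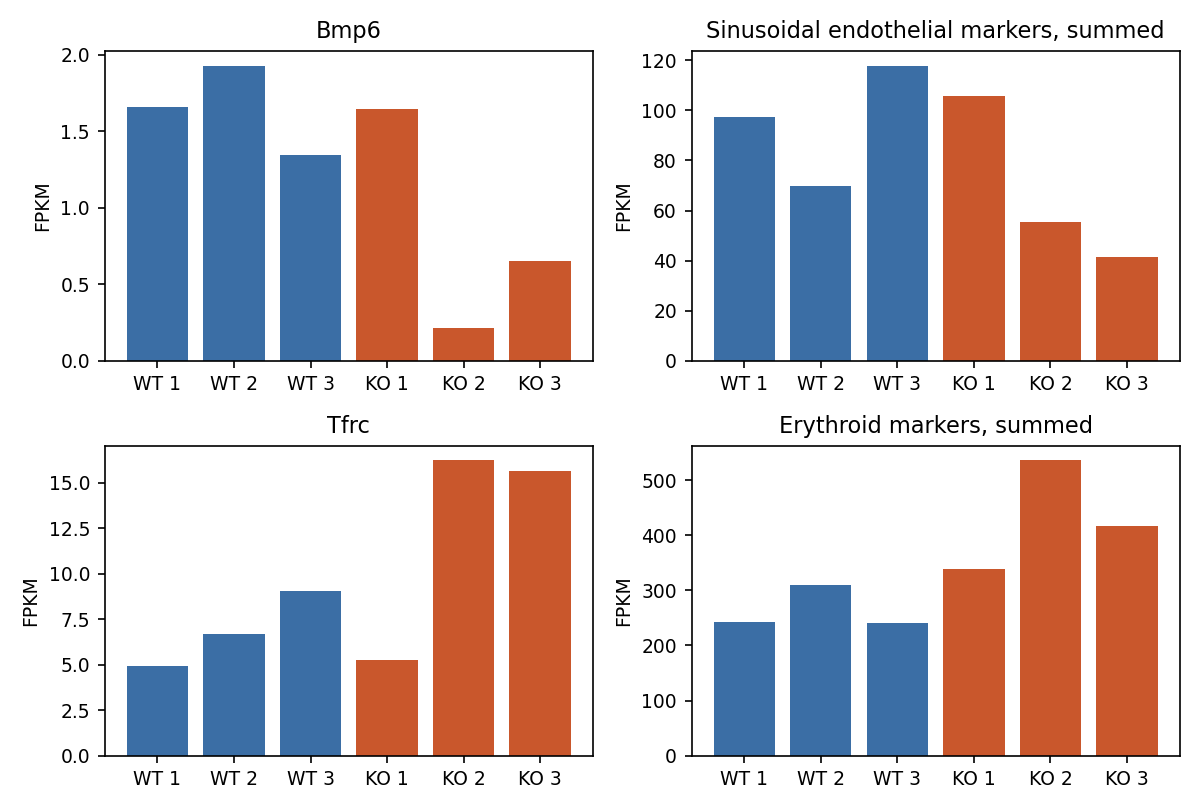
FPKM of Bmp6 and Tfrc (left) beside the summed FPKM of 9 sinusoidal endothelial markers and 6 erythroid markers (right), for each library, wild type (WT) in blue and Arid1a knockout (KO) in orange. Bmp6 and the endothelial sum are lowest in knockout replicates 2 and 3, the libraries in which Tfrc and the erythroid sum are highest.

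Id1 (chromosome 2, 152736251 to 152737410), a transcriptional inhibitor that BMP signalling induces, was at 109, 39.2 and 55.1 FPKM in wild type and at 42.0, 31.1 and 34.9 FPKM in knockout. Wild-type replicate 1 stood above the other 5 libraries, and the groups overlapped only through knockout replicate 1 and wild-type replicate 2. The difference was -0.78 (SE 0.36, adjusted p = 0.483), or -0.37 without wild-type replicate 1 and -1.10 without wild-type replicate 2.

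The iron sensors and the protease that restrains hepcidin did not pass the threshold. Hfe (chromosome 13, 23702034 to 23710854), an MHC-like protein that joins the receptor complex for iron, was at 25.9, 22.2 and 22.9 FPKM in wild type and at 22.5, 23.2 and 23.3 FPKM in knockout (-0.04, SE 0.12, adjusted p = 0.933). Tfr2 (chromosome 5, 137569840 to 137587481), the hepatocyte receptor that senses iron-loaded transferrin, was at 138, 105.7 and 121 FPKM in wild type and at 103, 116 and 141 FPKM in knockout (-0.03, SE 0.17, adjusted p = 0.970). For both genes the sign depended on the libraries: the differences of Hfe and Tfr2 were -0.20 and -0.42 between the replicate 1 libraries and 0.04 and 0.17 in replicates 2 and 3. Tmprss6 (chromosome 15, 78439667 to 78468634), a membrane protease that cleaves hemojuvelin and so lowers hepcidin, was at 115, 119.9 and 106.5 FPKM in wild type and at 92.9, 83.0 and 125 FPKM in knockout. Its difference was -0.20 (SE 0.18, adjusted p = 0.724), and knockout replicate 3 was the highest of all 6.

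The genes that export and carry iron did not pass either. Slc40a1 (chromosome 1, 45908068 to 45926523), the exporter ferroportin and target of hepcidin, was at 41.7, 46.6 and 48.8 FPKM in wild type and at 50.8, 48.8 and 49.2 FPKM in knockout (0.12, SE 0.12, adjusted p = 0.771). Kupffer cells and other macrophages carry much of it, and their 8 markers found summed to 337 to 611 FPKM in wild type and 279 to 386 FPKM in knockout, with 7 of 8 differences negative, 0 past the threshold by limma, 2 at an unadjusted p under 0.05 and none at 0. Trf (chromosome 9, 103204001 to 103230444), the plasma carrier transferrin, was at 21661, 27294 and 27400 FPKM in wild type and at 20877, 22328 and 21707 FPKM in knockout (-0.23, SE 0.22, adjusted p = 0.753). The 3 knockout libraries lay within a narrow range, which wild-type replicate 1 shared.

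Tfrc (chromosome 16, 32608920 to 32632794), the receptor that takes up transferrin and is abundant on erythroid and dividing cells, was at 4.92, 6.72 and 9.06 FPKM in wild type and at 5.28, 16.2 and 15.6 FPKM in knockout. Knockout replicates 2 and 3 were above every wild-type library, and knockout replicate 1 was not. The difference was 0.66 (SE 0.42, adjusted p = 0.614), or 0.08 in replicate 1 and 0.94 in replicates 2 and 3. It was 1.13 without knockout replicate 1, 0.41 without knockout replicate 2 and 0.43 without knockout replicate 3. Of 11 erythroid marker names 6 were found. They summed to 242, 309 and 241 FPKM in wild type and to 338, 536 and 417 FPKM in knockout, with 4 of 4 tested differences positive, 0 past the threshold by limma and 2 at an unadjusted p under 0.05. Alas2, the erythroid enzyme that opens heme synthesis, was at 4.29, 29.4 and 16.1 FPKM in wild type and at 33.2, 102 and 103 FPKM in knockout (2.35, SE 0.71, adjusted p = 0.285). Hbb-bt was listed at 0 in 1 library of each group. The part of erythroid cells in the level of Tfrc was not tested.

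**Figure D4:**
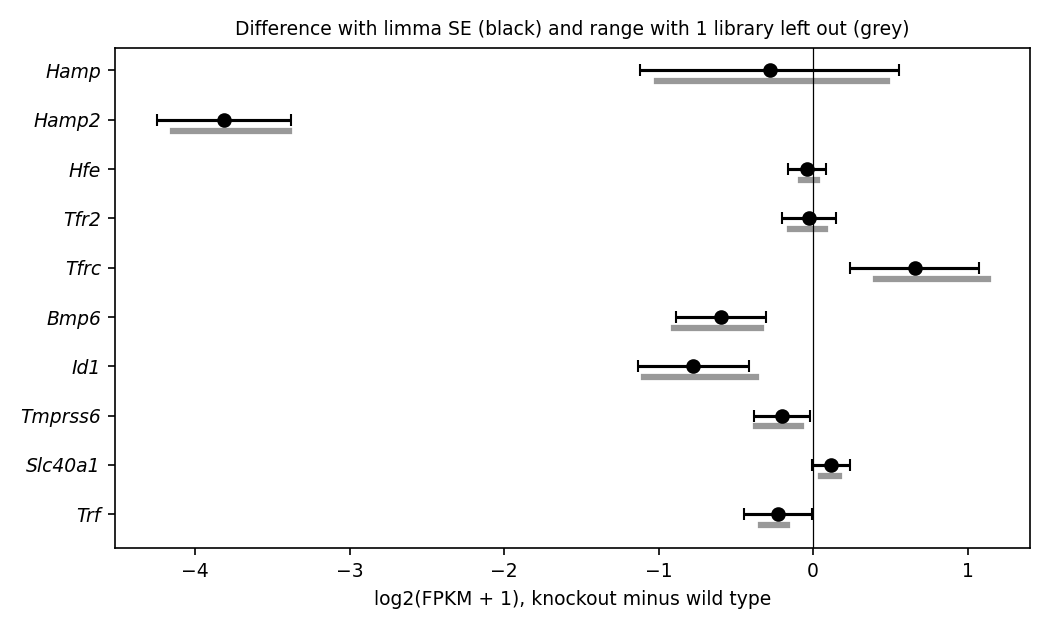
Knockout minus wild type difference of log2(FPKM + 1) for the 10 genes, with black points and bars for the value and its limma standard error (3 libraries per group) and grey bars for the range when each of the 6 libraries is left out in turn. Hamp2 stays between -4.15 and -3.39, and Hamp spans 0, from -1.01 to 0.48.

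The spread within a genotype differed widely among the 10 genes. Over all 6 libraries Hfe and Slc40a1 had the smallest coefficients of variation, 5.66% and 6.74%. Within wild type they had 8.23% and 8.01%, above Tmprss6 at 6.00%, and within knockout 1.97% and 2.11%. Hamp had 63.5% and 69.4%. Hamp2 had 34.9% and 46.6% within the groups, with each knockout library below each wild-type library. Bmp6 had 17.7% in wild type and 87.8% in knockout.

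Other genes of iron biology were taken from 6 lists, of which 63 genes were tested, none of them among the 10. By limma 1 fell in knockout, Steap3, and 0 rose, while at an unadjusted p under 0.05 there were 10 lower and 1 higher, or 17.5% of the 63. Over all genes tested that unadjusted share was 11.1%, with 770 lower (6.5%) and 550 higher (4.65%), and the counts at an unadjusted p given for single lists stand against the same share. Steap3, the reductase that turns transferrin-borne ferric iron into ferrous iron inside endosomes, was at 34.1, 32.3 and 31.8 FPKM in wild type and at 17.3, 16.8 and 15.1 FPKM in knockout. Its groups were far apart and each was tight, with means of 32.7 ± 1.19 and 16.4 ± 1.13 FPKM (SD, n = 3 libraries each; log2 difference -0.95, SE 0.12, limma adjusted p = 0.0372). Its difference was -0.99 to -0.90 when any 1 library was left out, and in each of these 6 fits, which have fewer libraries, it no longer passed, with adjusted p-values of 0.0508 (without knockout replicate 1) to 0.154 (without knockout replicate 3).

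Of the same 63 genes, 10 were lower and 1 higher in knockout without overlap of the groups, or 15.9% and 1.59%, against 9.56% and 7.09% of all genes tested, and their median difference was -0.11. Those that did not pass are named here after their values were seen. In iron uptake, storage and export (17 tested) they were Scara5, a ferritin receptor, Slc11a2, the iron transporter DMT1, Slc11a1, its macrophage relative, and Cp, the ferroxidase ceruloplasmin, all lower, and Ftl1, the ferritin light chain, higher. Cp was at 1282, 1349 and 1511 FPKM in wild type and at 986, 745 and 1019 FPKM in knockout (-0.60, SE 0.18, adjusted p = 0.289). Slc11a2 was at 10.2, 14.8 and 11.6 FPKM in wild type and at 6.53, 7.93 and 8.32 FPKM in knockout (-0.61, adjusted p = 0.270). Slc11a1 was at 23.4, 16.66 and 25.5 FPKM in wild type and at 9.93, 16.63 and 11.3 FPKM in knockout (-0.76, adjusted p = 0.305). Its groups were thus barely apart, with replicate 2 of both genotypes almost level. Ftl1, whose message is translated when iron is plentiful, was at 5136, 7313 and 6010 FPKM in wild type and at 7721, 11928 and 9566 FPKM in knockout (0.65, SE 0.25, adjusted p = 0.395). Scara5 was at 1.003 to 4.53 FPKM in wild type and 0.180 to 0.812 FPKM in knockout (-1.38, adjusted p = 0.262).

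**Figure D5:**
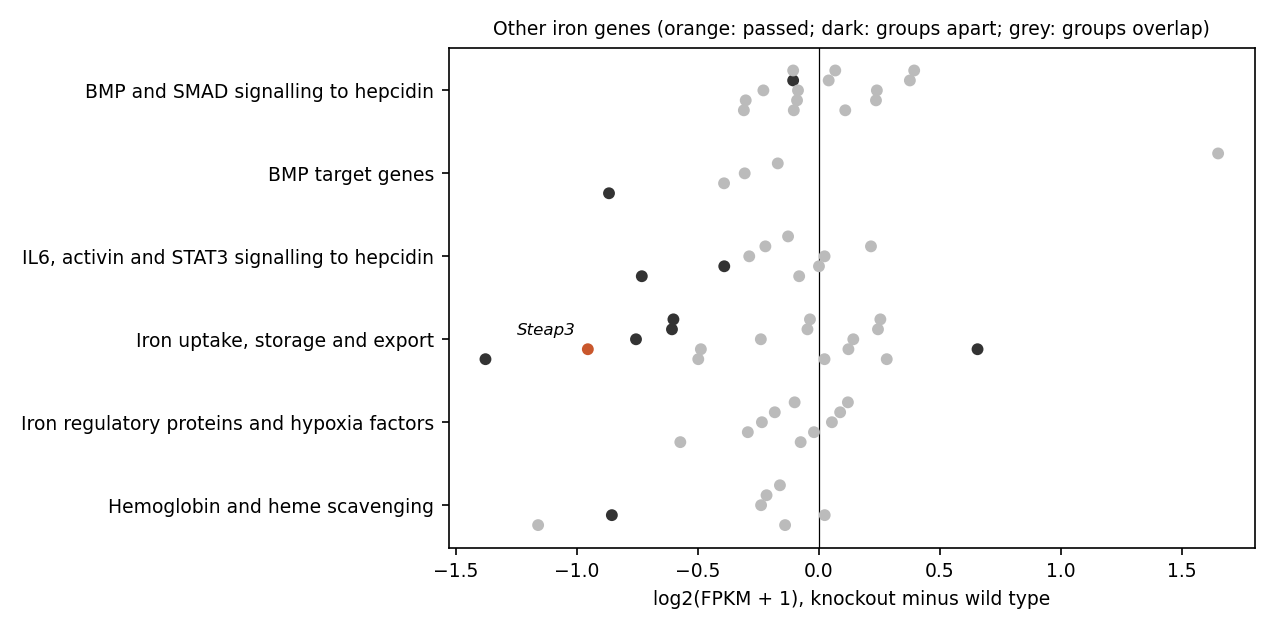
Knockout minus wild type difference of log2(FPKM + 1) for 63 other iron genes in 6 lists, 1 point per gene, with height within a list having no meaning. Steap3 (orange) passed the limma threshold, dark points are other genes whose groups do not overlap, and grey points are genes whose groups overlap.

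Among BMP target genes 0 of 5 tested passed by limma and 1 had an unadjusted p under 0.05, with a median of -0.31. Id2, a relative of Id1 that BMP signals also raise, came nearest, at 280, 234 and 207 FPKM in wild type and at 149, 120 and 124 FPKM in knockout (-0.87, SE 0.17, adjusted p = 0.115), with groups that did not overlap. It passed with a term for the library identifiers (adjusted p = 0.0374) and in none of its other 16 alternatives, over which adjusted p reached 0.333. Smad6, an inhibitor of the same pathway, was at 3.50, 1.27 and 2.40 FPKM in wild type and at 17.03, 25.6 and 1.24 FPKM in knockout, so that 1 knockout library stayed at the wild-type level (1.65, SE 0.88, adjusted p = 0.552). Among BMP and SMAD signalling genes 0 of 15 passed and 0 had an unadjusted p under 0.05, with a median of -0.09 and differences from -0.31 to 0.39. Hfe2, which encodes the BMP co-receptor hemojuvelin, was at 44.9 to 57.5 FPKM in wild type and 55.2 to 75.3 FPKM in knockout (0.38, adjusted p = 0.481), and the BMP ligand gene Bmp4 was at 0.24 (adjusted p = 0.648). Bmpr1a, a BMP receptor of hepatocytes, was the 1 gene of that list without overlap (-0.11, adjusted p = 0.793).

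In the interleukin 6 arm 0 of 9 passed by limma and 2 had an unadjusted p under 0.05, with a median of -0.13. Socs3, a feedback inhibitor that STAT3 induces, was at 11.4, 6.52 and 8.77 FPKM in wild type and at 5.03, 4.02 and 5.58 FPKM in knockout (-0.73, SE 0.22, adjusted p = 0.283). Il6st, the shared signalling receptor gp130, was at 13.01 to 14.1 FPKM in wild type and 8.88 to 12.2 FPKM in knockout (-0.39, adjusted p = 0.423). The groups of both genes did not overlap. Of the iron regulatory proteins and hypoxia factors 0 of 10 passed and 0 had an unadjusted p under 0.05, with a median of -0.09, and the nearest were the hypoxia factors Hif1a and Epas1 at -0.29 and -0.24 (adjusted p = 0.600 and 0.643). Among heme scavenging genes 0 of 7 passed and 2 had an unadjusted p under 0.05, with a median of -0.22. Hmox1, which breaks down heme, was at 179, 237 and 98.4 FPKM in wild type and at 129, 63.3 and 44.7 FPKM in knockout with overlapping groups (-1.16, SE 0.46, adjusted p = 0.421). Cd163, the macrophage receptor for hemoglobin, was at 5.24 to 5.93 FPKM in wild type and 1.36 to 4.74 FPKM in knockout (-0.85, adjusted p = 0.375). The macrophage marker sums given above overlapped between the genotypes, and knockout replicate 3, the lowest of these sums, had the highest Cd163 level of its group. Of the 8 single markers 7 had negative differences. The groups of 2 of them, Csf1r and Marco, were lower in knockout without overlap, as were 9.56% of all genes tested. The part of macrophage number in it was not tested.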

How the data were processed

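Total liver RNA was sequenced in 3 WT_DDC and 3 Arid1a_KO_DDC libraries. Values are log2 FPKM in a single table as the authors deposited it. TopHat2 2.0.6, Cufflinks and the builds mm10 and GRCm38 are named, per the submitters' processing notes. The sources used here do not give annotation, read length or strand setting. An offset of 0.000977 had been added before the log2; it was subtracted (values then had 6 significant digits in 100% of 60069 values checked, within a relative tolerance of 3e-08).

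Genes with at least 1 FPKM in at least 3 libraries were tested on log2(FPKM + 1), a pseudocount of 1 that understates changes of low genes, with limma 3.58.1 in R 4.3.3 (eBayes with trend, two-sided, Benjamini-Hochberg over all genes, threshold 0.05). The fit was also run on data simulated from its own fitted variances with normal errors and planted changes. Such a run checks the code and not whether the assumptions hold in these libraries. Adjusted p-values are from limma. Errors are SD over libraries or limma standard errors (SE). FPKM gives no depth, so there are no counting intervals. Positions are from GENCODE M21; promoters from RefSeq on GRCm38.p6, aligned with Biopython 1.88. Figures used matplotlib 3.10.9.

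The genes, the lists and the rule for naming were chosen with earlier results of these data known. All 10 genes and the listed neighbours of the hepcidin pair were named whatever their values. Of each other list, every gene past the threshold was named, or else the 2 of smallest p. The 3 nearest profiles of Hamp and of Hamp2 were named too. Alternatives were other pseudocounts, filters, scalings and variance settings, a replicate block, a term for library identifiers, 4 libraries alone, and leaving out each library.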

Additional observations from a re-analysis of the deposited data

Results flagged for a closer look

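Hfe had knockout effects of unlike sign in the replicate 1 libraries, which lack Y-linked transcripts and carry the identifiers L0566 and L0567, and in replicates 2 and 3, in which its groups did not overlap. On log2(FPKM + 1) its effect was -0.20 in replicate 1 and 0.04 in the others, a gap of -0.24. Replicate 1 has 1 library per group and Hfe was picked out by this pattern, so the gap is given as a value with no test. The same gap was larger for genes that do not show that pattern, such as Hamp at -3.09, Hamp2 at -1.69, Bmp6 at 0.88, Id1 at -0.87 and Tfrc at -0.86.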

How the results depend on the processing

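The log2 difference of Hamp2 was -4.15 to -3.25 over 17 alternatives, negative in each. The number of the 10 genes past the threshold as lower was 1, Hamp2, in 10 alternatives. It was 0 with no filter, with the replicate block and in L0602 to L0605 alone, and 0 to 1 with 1 library left out: 0 without wild-type replicate 1, 2 or 3 or knockout replicate 3, where the difference was -3.67, -4.15, -3.62 and -3.94. None of the 10 passed as higher in any alternative run. Steap3 was at -0.99 to -0.82 throughout; the count of other iron genes that fell was 0 with no filter, with the replicate block, in L0602 to L0605 alone and with any 1 library left out, and 2 with the library term, which added Id2.

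Over all genes, no filter gave 7 lower and 5 higher, the library term 33 higher and L0602 to L0605 alone 26 higher. Leaving out 1 library gave 0 to 40 lower and 0 to 30 higher. The replicate block gave 0 and 0 by limma, with 942 lower and 776 higher at an unadjusted p under 0.05. The correlation of deviations of same-numbered libraries was 0.35, 0.13 and 0.02, and wild-type replicate 3 was closest to knockout replicate 2 (0.26), so the numbers were not taken to pair the libraries; replicate 1 of both genotypes also shares its run of identifiers and low Y-linked transcripts.

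Signs that turned were all of differences that did not pass: Hamp at 0.75, Hfe at 0.0408, Tfr2 at 0.17 and Hpn at 0.0979 in L0602 to L0605 alone, and Fxyd1 at -0.0347 with quantile normalization. With 1 library left out the ranges were -1.01 to 0.48 for Hamp, -0.0808 to 0.0251 for Hfe, -0.15 to 0.0752 for Tfr2, -0.13 to 0.14 for Hpn and -0.0377 to 0.22 for Fxyd1. The sum of Hamp and Hamp2 was -1.04 to 0.69 over its 11 alternatives. The cause of these changes was not tested. Scaling moved the median of all genes to 0.0045 (median of ratios) and 0.02 (quantile). With unknown depth, low genes such as Bmp6 have no counting error.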
